A study of Mus musculus with 8 samples.

Results

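Immediate early genes were followed in single livers of mice kept on fructose, with and without Rbfox2 in hepatocytes, to set the spread between animals beside the difference between genotypes. The 10 genes Fos, Fosb, Jun, Junb, Egr1, Ier2, Ier3, Dusp1, Btg2 and Myc were chosen by name, as rows of the count table whose Ensembl identifier maps to these symbols, out of 46078 genes in the table. Of these 10, 9 passed the filter on low counts and were tested among 14654 genes, and Fosb did not pass. Both groups drank water with 30% (w/v) fructose for 22 weeks, were fasted before the liver was taken, and were assigned at an age of 8 weeks. The 5 wild-type (WT) mice carried loxP sites in both copies of Rbfox2 and no Cre, and the 3 Rbfox2 KO mice carried the same loxP sites with Albumin-cre. Cre driven by the albumin promoter acts in hepatocytes, so the other cells of the liver kept Rbfox2, a regulator of RNA splicing. The study names C57BL6/J, Rbfox2 loxP/loxP and Albumin-cre mice as its lines and used males unless it said otherwise. Each library came from 1 liver, and no label says which mice shared a cage, litter or day.

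Immediate early genes are transcribed within minutes of a stimulus without the need for new protein. Growth factors, hormones, stress and calcium reach them through the mitogen-activated protein kinases (MAPKs), serum response factor and CREB, and their mRNAs are short-lived, in many cases through AU-rich elements in the 3′ UTR. In liver they are known for a rapid induction after partial hepatectomy and injury. Most of the 10 encode transcription factors, while Dusp1 encodes a phosphatase that switches MAPKs off.

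Promoter sequences were available from RefSeq (GRCm38.p6) for 7 of the 10 genes, each covering 250 bases before and 50 bases after the annotated start. Ier2, Egr1 and Myc had no entry. Sequences of 4 genes are printed 5′ to 3′ on the gene's own strand. Fos, Btg2 and Dusp1 were taken because they hold TGACG, part of the motif through which CREB acts. Jun, with a like pattern over the livers, was taken because it holds no exact TGACG in this window. It does hold the similar letters TGACATCA, which were not searched for. Capitals mark the CRE half-site TGACG, the full cyclic AMP response element (CRE) TGACGTCA and the TATA box TATAAA.
Fos, chr12:85473640-85473939, plus strand: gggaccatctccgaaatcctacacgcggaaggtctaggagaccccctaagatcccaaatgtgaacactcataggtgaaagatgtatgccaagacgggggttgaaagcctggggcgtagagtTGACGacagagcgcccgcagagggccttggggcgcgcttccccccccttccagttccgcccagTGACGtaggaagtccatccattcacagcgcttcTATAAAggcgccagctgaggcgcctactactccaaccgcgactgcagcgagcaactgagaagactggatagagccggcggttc
Btg2, chr1:134079106-134079405, minus strand: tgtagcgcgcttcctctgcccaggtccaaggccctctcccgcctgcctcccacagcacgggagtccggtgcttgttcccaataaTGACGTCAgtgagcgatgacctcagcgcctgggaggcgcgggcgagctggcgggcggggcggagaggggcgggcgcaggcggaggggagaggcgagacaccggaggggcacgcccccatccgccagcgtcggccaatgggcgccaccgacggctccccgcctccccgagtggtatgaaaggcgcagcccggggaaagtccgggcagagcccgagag
Dusp1, chr17:26508423-26508722, minus strand: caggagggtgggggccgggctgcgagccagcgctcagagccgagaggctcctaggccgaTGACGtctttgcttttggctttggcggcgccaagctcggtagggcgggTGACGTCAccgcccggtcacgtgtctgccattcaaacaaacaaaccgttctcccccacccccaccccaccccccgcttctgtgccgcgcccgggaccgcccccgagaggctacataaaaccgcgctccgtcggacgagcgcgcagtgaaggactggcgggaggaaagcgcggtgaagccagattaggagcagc
Jun, chr4:95052173-95052472, minus strand: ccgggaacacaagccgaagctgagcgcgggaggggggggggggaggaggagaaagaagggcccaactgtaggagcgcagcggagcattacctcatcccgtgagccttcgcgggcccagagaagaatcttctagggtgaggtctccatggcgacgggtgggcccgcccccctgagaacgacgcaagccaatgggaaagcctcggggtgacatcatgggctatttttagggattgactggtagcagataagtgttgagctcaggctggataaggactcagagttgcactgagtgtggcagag

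On either strand, TGACG occurred in 5 of the 7 promoters (Btg2, Fosb, Junb, Fos and Dusp1), against 20.8% of all 32851 promoters of the same length. The full TGACGTCA, which contains TGACG, lay 166 bases upstream of the start in Btg2 and 143 bases upstream in Dusp1. It was found in 1.79% of all promoters. TATAAA occurred in 2 of 7 promoters (13.6% of all). In Fos it began 33 bases upstream of the start, and in Junb it began at the annotated start itself. The CCAAT box occurred in 4 of 7 promoters (37.4% of all), and the EGR motif GCGNGGGCG in 2 of 7 (5.55% of all). Neither the AP-1 motif TGANTCA (7.81% of all) nor the CArG box of serum response factor (1.63% of all) was found in these 7 windows. These matches describe letters in a window and do not show binding.

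AU-rich elements were read from the 3′ UTRs of GENCODE M21. The pentamer ATTTA, searched on the transcribed strand, was present in 9 of the 10 genes (all but Ier2), against 65.2% of 21037 genes with a 3′ UTR. The longer nonamer TTATTTATT was present in Fos and Dusp1, and in 7.65% of all genes. Fos held 1 match and Dusp1 held 2. The first site of each is printed, with the nonamer in capitals, because this element is well known from short-lived mRNAs.
Fos, nonamer from base 655 of an 815-base 3′ UTR: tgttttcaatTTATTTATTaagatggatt
Dusp1, nonamer from base 103 of a 690-base 3′ UTR: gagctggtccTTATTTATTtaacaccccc
The motif TGCATG, to which Rbfox proteins bind as UGCAUG, occurred in the 3′ UTR of Fosb, Jun, Egr1 and Myc, and in 32.4% of all genes.

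Library totals ran from 24829693 to 37823155 counts and did not differ between groups beyond their spread (two-sided exact permutation test, p = 0.839, with 0.0179 the smallest p that 56 splits allow). A count of 3 in 1 library equalled 0.0839 to 0.118 counts scaled to library size (CPM), the unit of all levels below unless stated. Rbfox2 itself was at 13.96, 20.5, 19.0, 17.9 and 23.2 CPM in WT 1 to 5 and at 6.84, 8.61 and 12.4 CPM in Rbfox2 KO 1 to 3, with every Rbfox2 KO liver below every WT liver. Its edgeR log2 fold change was -1.03 ± 0.21 (SE), with an adjusted p of 0.328, and DESeq2 gave an adjusted p of 0.0019. The 10 hepatocyte markers summed to 78118 to 83805 CPM over the WT livers, beside 73309 to 86272 CPM over the Rbfox2 KO livers, and none was at 0.

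One library stood apart before any immediate early gene was considered. Rbfox2 KO 1 had 463 CPM over 12 exocrine pancreas markers, where the other 7 livers had 4.78 to 17.2 CPM, and 11 of these 12 markers were at 0 in at least 1 liver. Its red blood cell markers summed to 2107 CPM (741 to 1459 CPM in the others), its stellate cell and fibroblast markers to 332 CPM (182 to 246 CPM in the others) and its hepatocyte markers to 73309 CPM, the lowest of the 8. Kupffer cell markers summed to 411 CPM in this library (293 to 396 CPM in the others), neutrophil markers to 5.40 CPM (1.64 to 3.36 CPM) and endothelial markers to 217 CPM (231 to 257 CPM), while cholangiocyte and lymphocyte markers lay inside the range of the other livers. Skeletal muscle markers summed to 275 CPM in Rbfox2 KO 1, 339 CPM in WT 4 and 451 CPM in WT 5, and to 1.38 to 56.5 CPM in the remaining livers. Many of the results below are therefore given with and without Rbfox2 KO 1. Counts of groups that do not overlap use all 8 livers, and a result given only once may still depend on this liver. In bulk tissue, fewer cells of a type and less RNA per cell cannot be told apart.

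The immediate early genes were expressed at low to moderate levels in both genotypes. Per length, as RPKM over the merged exons, the WT means were 5.51 ± 1.53 for Junb, 5.50 ± 0.40 for Ier2, 4.37 ± 0.74 for Dusp1 and 4.06 ± 1.04 for Jun (SD, n = 5). Ranges over the 5 WT livers overlapped between each gene and the next in this order. Btg2 followed at 1.66 ± 0.62 RPKM (SD, n = 5), with no WT liver as high as the lowest value of Jun, 3.13 RPKM. Egr1 was at 1.06 ± 0.34 RPKM, Myc at 0.668 ± 0.0721 RPKM, Ier3 at 0.521 ± 0.211 RPKM and Fos at 0.312 ± 0.0870 RPKM (SD, n = 5), and from Btg2 to Fos neighbouring ranges overlapped again. Fosb was lowest, at 0.0148 ± 0.0112 RPKM (SD, n = 5). In Rbfox2 KO livers the mean of Ier2 was 6.68 ± 0.93 RPKM and that of Junb 5.90 ± 0.28 RPKM (SD, n = 3). Jun (5.46 ± 1.44 RPKM) was on average above Dusp1 (5.30 ± 0.75 RPKM). Both pairs thus changed order in their means, though their ranges overlapped. Jun was above Dusp1 only in Rbfox2 KO 1 (7.11 against 5.30 RPKM). It was below Dusp1 in Rbfox2 KO 2 (4.49 against 4.55 RPKM) and Rbfox2 KO 3 (4.77 against 6.05 RPKM).

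**Figure D1:**
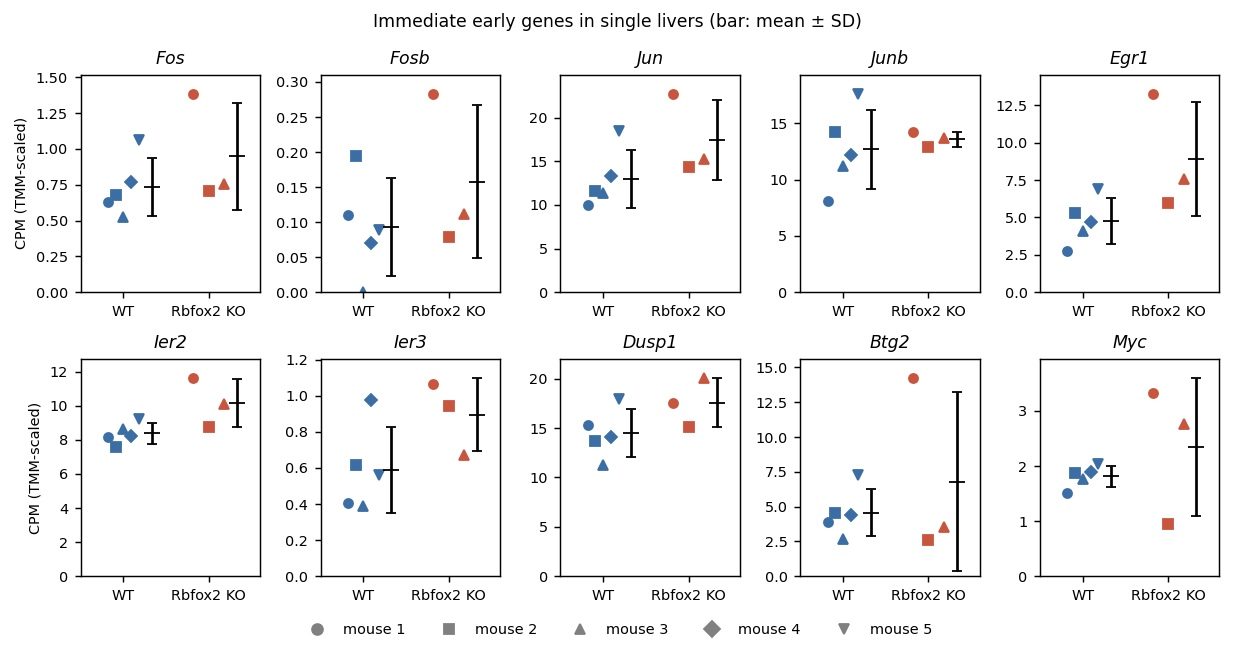
Level of each of the 10 immediate early genes in each liver, in TMM-scaled CPM on the vertical axes, for 5 WT (blue) and 3 Rbfox2 KO (red) mice, with symbols for the mouse number and a bar for the mean ± SD. Rbfox2 KO 1 (circle) is the highest liver for Fos, Fosb, Jun, Egr1, Ier2, Ier3, Btg2 and Myc, and WT 5 (inverted triangle) the highest for Junb.

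Fos, Fosb, Jun and Junb encode subunits of the AP-1 transcription factor, in which a Fos protein pairs with a Jun protein. Fos (ENSMUSG00000021250, chromosome 12 from 85473890 to 85477273, plus strand, GRCm38) had 0.628, 0.679, 0.527, 0.769 and 1.06 CPM in WT 1 to 5, and 1.38, 0.708 and 0.755 CPM in Rbfox2 KO 1 to 3. WT 5 and Rbfox2 KO 1 were the high livers, and the other 2 Rbfox2 KO livers lay inside the WT range. The ratio of the Rbfox2 KO mean to the WT mean was 1.29, and 0.997 without Rbfox2 KO 1. By edgeR the log2 fold change was 0.37 ± 0.32 (SE, adjusted p = 0.99997), and -0.01 without Rbfox2 KO 1. Raw counts were 15 to 44 a library, so counting error alone gives a coefficient of variation (CV) of 21.2% in WT, where 27.9% was measured.

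Fosb (ENSMUSG00000003545, chromosome 7 from 19302696 to 19310051, minus strand) had 3, 6, 0, 2 and 3 counts in WT 1 to 5 and 9, 2 and 4 counts in Rbfox2 KO 1 to 3. The WT mean was 0.0927 ± 0.0702 CPM (SD, n = 5), and the Rbfox2 KO mean 0.158 ± 0.109 CPM (SD, n = 3). Its highest value, 0.282 CPM, was again in Rbfox2 KO 1. The 0 in WT 3 allows a level of up to 0.105 CPM by counting error, so Fosb differences were not detectable at this depth.

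Jun (ENSMUSG00000052684, chromosome 4 from 95049034 to 95052222, minus strand) had 9.97, 11.6, 11.3, 13.4 and 18.5 CPM in WT 1 to 5, and 22.7, 14.3 and 15.2 CPM in Rbfox2 KO 1 to 3. WT 5 lay above 2 of the Rbfox2 KO livers, while the other 4 WT livers lay below all 3. The edgeR log2 fold change was 0.43 ± 0.21 (SE, adjusted p = 0.99997), and 0.18 without Rbfox2 KO 1. The antisense gene Junos covers 7.28% of the exon bases of Jun, so reads of this stretch cannot be assigned with certainty where counting ignored strand.

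Junb (ENSMUSG00000052837, chromosome 8 from 84974484 to 84978718, minus strand) had 8.12, 14.2, 11.2, 12.2 and 17.6 CPM in WT 1 to 5, and 14.2, 12.9 and 13.6 CPM in Rbfox2 KO 1 to 3. All 3 Rbfox2 KO livers lay within the WT range, with a CV of 4.75% (n = 3) beside 27.7% in WT (n = 5). Its edgeR log2 fold change of 0.10 ± 0.20 (SE, adjusted p = 0.99997) was the smallest of the 9 tested genes, and it became -0.03 without WT 1. Prdx2, on the opposite strand, overlaps 7.52% of the exon bases of Junb.

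Egr1 (ENSMUSG00000038418, chromosome 18 from 34859823 to 34864984, plus strand) encodes a zinc finger transcription factor induced by MAPK signalling. It had 2.73, 5.30, 4.11, 4.72 and 6.92 CPM in WT 1 to 5, and 13.2, 5.94 and 7.58 CPM in Rbfox2 KO 1 to 3. Of the WT livers only WT 5 overlapped with the Rbfox2 KO livers, lying above Rbfox2 KO 2. The group means were 4.76 ± 1.54 CPM (SD, n = 5) and 8.92 ± 3.83 CPM (SD, n = 3), a ratio of 1.88, or 1.42 without Rbfox2 KO 1. Egr1 had the largest fold change of the 9 tested genes, with an edgeR log2 fold change of 0.90 ± 0.31 (SE) and an adjusted p of 0.889. The DESeq2 adjusted p was 0.387. Without Rbfox2 KO 1 the edgeR log2 fold change was 0.50, and its unadjusted p no longer lay under 0.05.

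Ier2 and Ier3 are immediate early response genes, of which Ier2 encodes a nuclear protein and Ier3 a regulator of cell survival. Ier2 (ENSMUSG00000053560, chromosome 8 from 84661331 to 84662852, minus strand) had 8.20, 7.56, 8.64, 8.25 and 9.23 CPM in WT 1 to 5, and 11.6, 8.77 and 10.1 CPM in Rbfox2 KO 1 to 3. It was the steadiest of the 9 tested genes, and here too WT 5 was the one WT liver above a Rbfox2 KO liver. Ier2 had a log2 fold change of 0.28 ± 0.12 (SE) by edgeR, with an adjusted p of 0.99997, and without Rbfox2 KO 1 it was 0.17. Ier3 (ENSMUSG00000003541, chromosome 17 from 35821684 to 35822923, plus strand) had 0.406, 0.614, 0.386, 0.979 and 0.562 CPM in WT 1 to 5, and 1.07, 0.944 and 0.671 CPM in Rbfox2 KO 1 to 3. WT 4 was the high WT liver for Ier3 and lay inside the Rbfox2 KO range. The edgeR log2 fold change of Ier3 was 0.59 ± 0.34 (SE, adjusted p = 0.99997), and 0.43 without Rbfox2 KO 1, on 11 to 34 counts a library.

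Dusp1 (ENSMUSG00000024190, chromosome 17 from 26505590 to 26562128, minus strand) had 15.3, 13.6, 11.3, 14.1 and 17.9 CPM in WT 1 to 5, and 17.5, 15.1 and 20.03 CPM in Rbfox2 KO 1 to 3. The groups overlapped, and Rbfox2 KO 3 rather than Rbfox2 KO 1 was the highest liver. The edgeR log2 fold change was 0.28 ± 0.15 (SE, adjusted p = 0.99997), and 0.27 without Rbfox2 KO 1.

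Btg2 (ENSMUSG00000020423, chromosome 1 from 134075170 to 134079120, minus strand) encodes an antiproliferative protein that recruits the deadenylation machinery to mRNAs. It had 3.88, 4.52, 2.71, 4.37 and 7.30 CPM in WT 1 to 5, and 14.2, 2.63 and 3.52 CPM in Rbfox2 KO 1 to 3. Rbfox2 KO livers were thus both the highest and the lowest of the 8, with 453 counts in Rbfox2 KO 1 and 67 in Rbfox2 KO 2. The mean was 6.79 ± 6.44 CPM (SD, n = 3) in Rbfox2 KO, a CV of 94.9%, beside 4.56 ± 1.69 CPM (SD, n = 5) in WT. By edgeR, Btg2 had a log2 fold change of 0.58 ± 0.55 (SE, adjusted p = 0.99997), which turned to -0.57 without Rbfox2 KO 1.

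Myc (ENSMUSG00000022346, chromosome 15 from 61985391 to 61990374, plus strand) encodes a transcription factor of growth and proliferation. It had 1.51, 1.87, 1.76, 1.89 and 2.04 CPM in WT 1 to 5, and 3.33, 0.944 and 2.77 CPM in Rbfox2 KO 1 to 3. The WT livers were close together, with a CV of 10.8% where counting error alone gives 13.6%, while the Rbfox2 KO livers lay on both sides of the WT range with a CV of 53.1%. The edgeR log2 fold change was 0.38 ± 0.32 (SE, adjusted p = 0.99997), 0.74 without Rbfox2 KO 2 (adjusted p = 0.454) and 0.05 without Rbfox2 KO 1.

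Of the 9 tested immediate early genes, 0 were called by edgeR at an adjusted p of 0.05, as were 0 of all 14654 genes (0.0%), and DESeq2 called 0 of the 9 (0.403% of all genes). At an unadjusted p under 0.05 there were 2 of 9, Egr1 and Ier2, beside 4.74% of all genes, or 2.41% counting only those higher in Rbfox2 KO. DESeq2 had 2 of 9 at this level too (4.93% of all genes). The groups did not overlap for 0 of 9 genes, beside 3.71% of all genes (1.89% with Rbfox2 KO above WT and 1.82% below). All 9 fold changes were above 0, as for 50.2% of all genes, with a median log2 fold change of 0.38 beside 0.000953 over all genes. Without Rbfox2 KO 1 the median was 0.17, 7 of 9 were above 0, and 0 of 9 had an unadjusted edgeR p under 0.05, beside 3.83% of all genes. Without WT 5 there were 4 such genes (Jun, Egr1, Ier2 and Dusp1), beside 4.76% of all genes, and without Rbfox2 KO 2 there were 5 (Jun, Egr1, Ier2, Dusp1 and Myc), beside 6.46%.

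The spread between livers was then set beside the genotype difference, both on the log2 CPM scale with a prior count of 2. The spread was the SD within genotypes, pooled over both groups. The difference exceeded this SD for 5 of 9 genes, beside 19.5% of all genes, or 10.1% counting only those higher in Rbfox2 KO. It was 0.88 against 0.52 for Egr1, 0.60 against 0.44 for Ier3, 0.43 against 0.35 for Jun, 0.28 against 0.23 for Dusp1 and 0.27 against 0.14 for Ier2. The spread was the larger for the other 4, with 0.32 against 0.40 for Fos, 0.24 against 0.85 for Btg2, 0.19 against 0.56 for Myc and 0.14 against 0.34 for Junb. With Rbfox2 KO 1 left out, the difference of Jun fell under its SD (0.22 against 0.30), and that of Egr1 was 0.55 against 0.45. On this scale Btg2 (-0.50 against 0.47) and Myc (-0.15 against 0.49) changed sign. Btg2 then exceeded its SD with Rbfox2 KO the lower group. Differences of Ier3 (0.47 against 0.46), Dusp1 (0.28 against 0.25) and Ier2 (0.17 against 0.11) stayed above the SD.

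**Figure D2:**
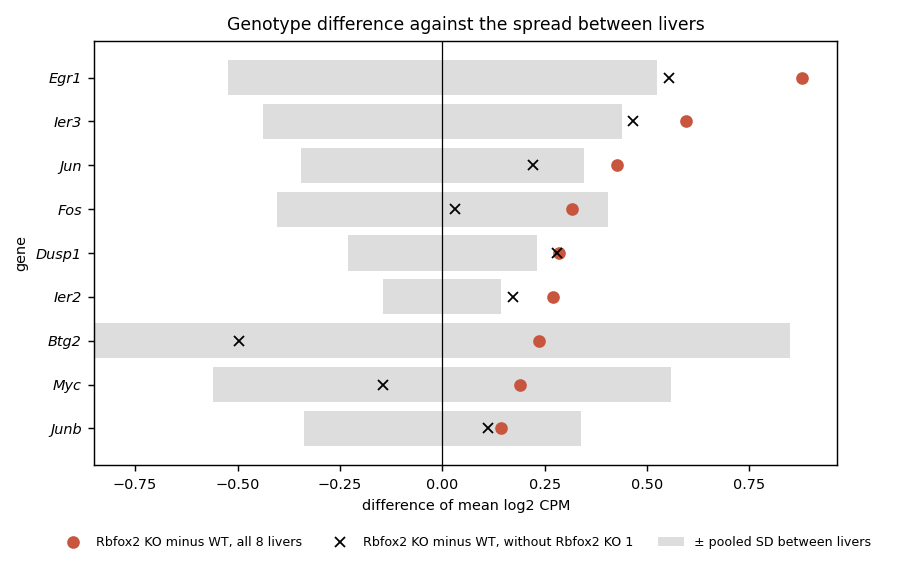
Difference of mean log2 CPM, Rbfox2 KO minus WT, for the 9 tested genes (red points, all 8 livers, and crosses, without Rbfox2 KO 1), on a grey bar of ± the pooled SD between livers of a genotype. Egr1, Ier3, Jun, Dusp1 and Ier2 lie outside their bars with all livers, and Btg2 has the widest bar, 0.85, and a cross at -0.50.

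The median SD of the 9 genes was 0.40, beside 0.23 over all tested genes, with Ier2 and Dusp1 below the latter. The median size of the genotype difference was 0.28, beside 0.11 over all tested genes. Which of the 2 medians was the larger depended on the livers used. The median difference exceeded the median SD without WT 5 (0.42 against 0.35), without Rbfox2 KO 2 (0.55 against 0.37) and without Rbfox2 KO 3 (0.44 against 0.42), and was the smaller without Rbfox2 KO 1 (0.22 against 0.37). The difference exceeded the SD for 7 of 9 genes without WT 5 (23.7% of all genes) and for 7 of 9 without Rbfox2 KO 2 (28.6%). It did so for 5 of 9 without Rbfox2 KO 1, and for 4 of 9 without WT 1. Leaving out WT 2, WT 3, WT 4 or Rbfox2 KO 3 kept it at 5 of 9, as with all livers. No share of all genes was taken for these last counts, from Rbfox2 KO 1 on, so they stand without a comparison. Over all genes the median difference was 0.12 against a median SD of 0.22 without Rbfox2 KO 1. Without WT 1 it was 0.13 against 0.21. Because low counts spread more, each gene was also ranked among genes of like level. Btg2 stood at percentile 98.4 of 921 genes in its bin of mean log2 CPM, Egr1 at 95.2 of 1030, Jun at 91.0 and Junb at 89.99 of 1219, and Myc at 87.5 of 728. Dusp1 was at percentile 72.2, while Ier3 (51.2), Fos (45.0) and Ier2 (30.4) were in the middle of their bins or below it. Without Rbfox2 KO 1, Btg2 was at percentile 91.5, Egr1 at 93.7, Junb at 93.9, Jun at 88.8, Myc at 87.5 and Dusp1 at 80.1 of genes of like level. Ier3 was then at 57.6, Fos at 31.9 and Ier2 at 19.8. The SD of Btg2 was then 0.47, down from 0.85, and that of Myc was 0.49, so Btg2 had the widest spread only with this liver included.

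**Figure D3:**
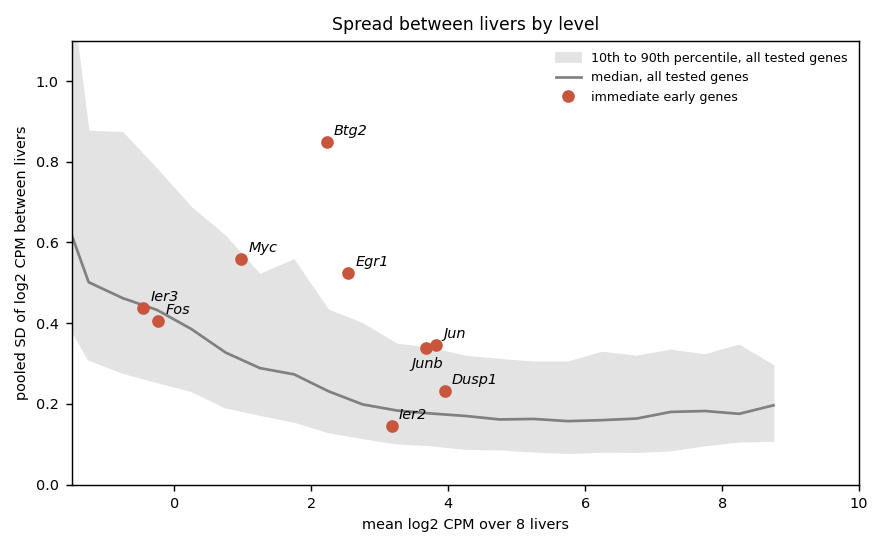
Pooled SD of log2 CPM between livers of a genotype (vertical axis) against the mean log2 CPM over 8 livers (horizontal axis) for the 9 immediate early genes (red), with the median (line) and the 10th to 90th percentile (grey) of all 14654 tested genes in bins of level. Btg2 (0.85) and Egr1 (0.52) lie above the grey band, Jun (0.35) lies just above it and Ier2 (0.14) lies below the median line.

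The same livers were high or low for most of these genes. Relative to the WT mean of each gene, the mean over the 9 genes was -0.28, 0.03, -0.25, 0.11 and 0.40 on the log2 scale for WT 1 to 5 and, for Rbfox2 KO 1 to 3, 0.85, -0.02 and 0.28. WT 5 was thus above Rbfox2 KO 2 and Rbfox2 KO 3, and the range within WT was wider than the distance of those 2 from the WT mean. Rbfox2 KO 1 was the highest of all 8 livers for 7 of 9 genes, beside 17.7% of all tested genes, and WT 5 was the highest WT liver for 8 of 9, beside 27.4%. The lowest WT liver was WT 1 or WT 3 for 8 of 9 genes, beside 46.8%. Rbfox2 KO 1 or WT 5 was the highest of the 8 for 8 of 9 (35.0% of all genes), the exception being Dusp1. The livers named here as highest or lowest were read from these same 9 genes. The shares of all genes beside them are thus a description and not a test.

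**Figure D4:**
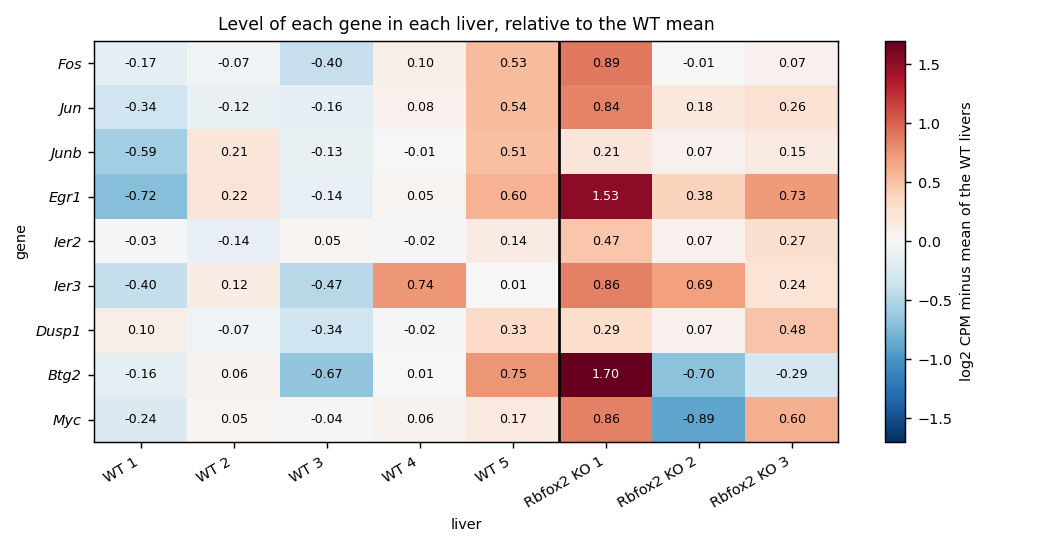
Log2 CPM of each tested immediate early gene (rows) in each liver (columns) minus the mean of the 5 WT livers, with red above and blue below that mean and the value printed in each field. The columns of WT 5 and Rbfox2 KO 1 are above 0 for all 9 genes, and Rbfox2 KO 2 ranges from -0.89 (Myc) to 0.69 (Ier3).

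With genotype means removed, 35 of the 36 pairs of the 9 genes had a positive correlation over the 8 livers, with a median r of 0.57, where pairs among every seventh tested gene had a median of -0.00198. It was 0.47 without Rbfox2 KO 1 (34 positive) and 0.38 without Rbfox2 KO 1 and WT 5 (27 positive). These points share library, scaling and liver, and are given as a description. Other quantities moved with the same libraries. The sum of the stellate cell and fibroblast markers was highest in Rbfox2 KO 1 (332 CPM) and next in WT 5 (246 CPM). For 10 of 10 of these markers 1 of these 2 livers was the highest of the 8 (35.0% of all genes). Skeletal muscle markers were high in both (275 and 451 CPM). Of these, 10 of 12 were highest in WT 5 and 0 in Rbfox2 KO 1, beside 35.0% of all genes for either liver and 17.7% for Rbfox2 KO 1. They were also high in WT 4 (339 CPM), where the immediate early genes were on average 0.11 above the WT mean on the log2 scale. Acta1 and Myh2 of the muscle list were at 0 in at least 1 liver. All 5 red blood cell markers were highest in Rbfox2 KO 1, whereas WT 5 (858 CPM) was the lowest WT liver for their sum. The part of these in the result was not tested. Heat shock genes summed to 3526 CPM in Rbfox2 KO 1 and 3732 CPM in WT 5, within the range of 3516 to 4061 CPM over the WT livers. Hspa8 had the highest mean level of this list, and handling stress was not tested.

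The 8 genes outside the lists whose pattern over the livers was most like the mean of the 9 were Pdp1 (r = 0.990), Zfp994 (0.985), Skil (0.984), Helb (0.984), Igsf10 (0.979), Gpr35 (0.979), Timp2 (0.975) and Smtn (0.972). Likeness was Pearson's r over 8 livers with genotype means removed, Spearman's rho was 0.929 to 0.976, and these are the highest of all tested genes, so no test applies. Pdp1, a phosphatase that activates pyruvate dehydrogenase, had 0.443, 0.582, 0.457, 0.699 and 1.06 CPM in WT 1 to 5, and 1.16, 0.393 and 0.727 CPM in Rbfox2 KO 1 to 3. Skil, which encodes the SnoN repressor of TGF-β signalling, had 7.35, 8.05, 7.66, 8.46 and 10.9 CPM in the WT livers, beside 11.6, 7.35 and 8.78 CPM in Rbfox2 KO 1 to 3. Both showed the order seen for the immediate early genes, with WT 5 and Rbfox2 KO 1 high and WT 1 and WT 3 low within WT. The lowest r with 1 liver left out was 0.946 (Smtn, without Rbfox2 KO 1) among the 8.

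Genes of the same kind that are not among the 10 gave a wider view. A list of 50 other rapid response genes held 47 that were tested (all but Fosl1, Egr2 and Egr3), of which edgeR called 0 at an adjusted p of 0.05, as for all genes (0.0%). An unadjusted p under 0.05 was reached by 6, all 6 higher in Rbfox2 KO (2.41% of all genes). The groups did not overlap for 2 of 47, both higher in Rbfox2 KO, beside 3.71% of all genes (1.89% higher). The 4 genes described next had the smallest p of the list, so they were picked on these same values. The median log2 fold change was 0.14, and 0.09 without Rbfox2 KO 1, where 3 had an unadjusted p under 0.05 (3.83% of all genes). Rbfox2 KO 1 was the highest liver for 16 of 47, beside 17.7% of all genes. Nr4a2, an orphan nuclear receptor, had 0.591, 0.808, 0.632, 0.944 and 0.680 CPM in WT 1 to 5 and 1.22, 1.73 and 0.979 CPM in Rbfox2 KO 1 to 3, without overlap. Its edgeR log2 fold change was 0.83 ± 0.27 (SE, adjusted p = 0.882), and 0.87 without Rbfox2 KO 1. Without Rbfox2 KO 2, its highest liver, it was 0.59, with an unadjusted edgeR p of 0.0737. Raw counts of Nr4a2 were 16 to 44 a library, where counting error alone gives a CV of 21.4% in WT. Mcl1, an anti-apoptotic BCL2 family member, had 81.5, 81.7, 86.7, 82.9 and 75.4 CPM in the WT livers, beside 104.9, 94.4 and 93.6 CPM in Rbfox2 KO 1 to 3, also without overlap. It had a log2 fold change of 0.26 ± 0.09 by edgeR (SE, adjusted p = 0.882). Without Rbfox2 KO 1 this was 0.20, and its unadjusted p no longer lay under 0.05. Jund, the third Jun protein of AP-1, had a log2 fold change of 0.37 ± 0.12 by edgeR (SE, adjusted p = 0.882), and Ccn2, a secreted matrix protein, one of 0.79 ± 0.26 (SE, adjusted p = 0.882). For both of them the Rbfox2 KO and WT livers overlapped, and without Rbfox2 KO 1 the log2 fold change was 0.21 for Jund and 0.46 for Ccn2.

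The kinases and factors that drive these genes were tested as a list of 34, of which edgeR called 0 at an adjusted p of 0.05. DESeq2 likewise called 0 of these and 0 of the other rapid response genes. An unadjusted p under 0.05 was reached by 4, 3 higher and 1 lower in Rbfox2 KO (2.41% and 2.33% of all genes). These 4 are described next and were thus picked on these same values. The groups did not overlap for 3 of 34, all 3 higher in Rbfox2 KO, beside 3.71% of all genes (1.89% higher). The median log2 fold change of the 34 was 0.06. Without Rbfox2 KO 1 it was 0.07, and 2 had an unadjusted edgeR p under 0.05, beside 3.83% of all genes. Srf, the serum response factor, had 8.75, 10.1, 9.31, 9.65 and 7.78 CPM in WT 1 to 5, and 11.4, 11.5 and 11.2 CPM in Rbfox2 KO 1 to 3. All 3 Rbfox2 KO livers were close together and above every WT liver. By edgeR, Srf had a log2 fold change of 0.32 ± 0.11 (SE, adjusted p = 0.882), and 0.31 without Rbfox2 KO 1, where its unadjusted p stayed under 0.05. Rbfox2 KO 1 did not stand out for Srf as it did for Egr1 or Btg2. Map2k6, a kinase that activates p38, had a log2 fold change of 0.65 ± 0.23 (SE, edgeR adjusted p = 0.894), also without overlap. On 23 to 67 counts a library, it was 0.79 without Rbfox2 KO 1 and 0.46 without Rbfox2 KO 3. In the latter case its unadjusted edgeR p was 0.110. Crem, a relative of CREB, was at 0.33 ± 0.14 (SE, edgeR adjusted p = 0.99997) and the kinase Rps6ka1 at -0.28 ± 0.12 (SE, edgeR adjusted p = 0.99997). Without Rbfox2 KO 1, Crem was at 0.27 and Rps6ka1 at -0.19, neither with an unadjusted p under 0.05. In the lists of 12 heat shock genes and 14 circadian clock genes, 0 had an unadjusted edgeR p under 0.05, with median log2 fold changes of 0.03 and -0.03. In that of 14 fasting response genes 1 had, with a median of 0.23, beside 4.74% of all genes. Without Rbfox2 KO 1, 3 of the 14 fasting response genes had, and 0 of the heat shock and clock genes, beside 3.83% of all genes.

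**Figure D5:**
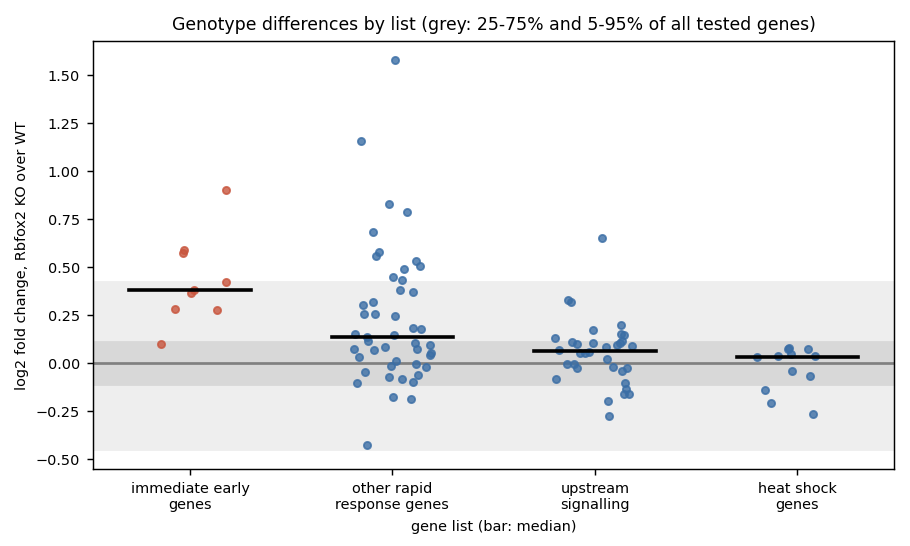
Log2 fold change, Rbfox2 KO over WT, of the tested genes (points) of 4 lists, with the median of each list as a black bar, on grey bands that hold 25 to 75% and 5 to 95% of all 14654 tested genes. The medians are 0.38 for the 9 immediate early genes, 0.14 for other rapid response genes, 0.06 for upstream signalling and 0.03 for heat shock genes, and no gene passed an adjusted p of 0.05.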

How the data were processed

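RNA was measured in 8 livers, 5 WT and 3 Rbfox2 KO, with groups read from the titles. The deposited values are raw counts per Ensembl gene. The authors aligned poly(A)-selected, paired-end reads to GRCm38 with TopHat2 2.0.11 as a stranded library and counted them with featureCounts. The strand setting and the treatment of multiply aligned reads at counting were not given in the sources used here, which leaves genes with antisense or overlapping partners uncertain. The authors named DESeq2 or edgeR-voom-limma at an adjusted p of 0.05.

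All 46078 genes entered the analysis, and 45143 had a symbol in GENCODE M21, which also gave positions, exon lengths and 3′ UTRs. 4 listed genes were renamed to its symbols (Ccn1, Ccn2, Mrtfa and Mrtfb). Of the sample columns, 0 were left without a sample. Genes were filtered with filterByExpr (14654 left), scaled with TMM (factors 0.821 to 1.29) and tested in R 4.3.3 for genotype alone by the robust quasi-likelihood method of edgeR 4.0.16, adjusted over all tested genes after Benjamini and Hochberg. SE is the size of the log2 fold change divided by the square root of F. Log2 CPM for spread used a prior count of 2. Floors of 3 counts and counting CVs reflect counting error alone, because reads carried no molecular identifiers. No pair of replicates agreed within sampling noise (chi-square per degree of freedom of 41.8 to 318). The p-values set the genotype difference against the spread between these livers. Nothing describes how mice were housed or processed together, so a shared cage, litter or day could not be allowed for.

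Genes named were Rbfox2, the 10 members, the 4 genes with the smallest p in each of the rapid response and upstream lists, and the 8 genes most like the members. The members and lists were chosen with earlier results of these data known. Alternatives were other scalings and filters, DESeq2 1.42.0, limma-voom (limma 3.58.1), a non-robust fit, other prior counts, the sample number as a block, a threshold of 0.1 and each liver left out. The test was checked on simulated counts. Splicing was not analysed here.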

Additional observations from a re-analysis of the deposited data

Results flagged for a closer look

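The summed level of the 12 exocrine pancreas markers in WT livers was set apart by 1 sample. WT 1 had 17.2 CPM and the other 4 WT livers 4.78 to 5.29 CPM, a gap of 0.959 of the whole range, above the critical value of 0.71 for 5 samples. In WT 1, 8 of the 9 tested immediate early genes were below the WT mean, and Dusp1 was above it. Of 45 values examined this way 1 was singled out, where chance alone gives about 2.25.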

How the results depend on the processing

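The count of genes past an adjusted p of 0.05 was 0 by edgeR, with 694 at an unadjusted p under 0.05. It was 6 with no filter on low counts, 59 with the DESeq2 Wald test and 1 at an adjusted p of 0.1, and 0 with each liver left out in turn. The immediate early genes, the other rapid response genes and the upstream genes had 0 calls in each of these. Among the 9 immediate early genes, 70 of 70 fold changes under other scalings, filters, tests and the block kept their direction and side of the threshold, as did 69 of 72 with 1 liver left out. The cause of the changes was not tested. With 1 liver left out, log2 fold changes ran from -0.0148 to 0.54 for Fos, -0.0316 to 0.25 for Junb, -0.57 to 0.95 for Btg2, -0.20 to 0.52 for Pdp1, -0.11 to 0.0143 for Zfp994, -0.0763 to 0.27 for Skil, -0.18 to 0.34 for Igsf10, -0.0535 to 0.76 for Gpr35, -0.10 to 0.19 for Timp2 and -0.14 to 0.39 for Smtn. Leaving out Rbfox2 KO 1 turned Fos, Btg2, Pdp1, Skil, Igsf10, Gpr35, Timp2 and Smtn, leaving out WT 1 turned Junb and Igsf10, and leaving out Rbfox2 KO 2 turned Zfp994. Scaling by library totals moved the median log2 fold change of all genes to 0.12 and that of the 9 genes to 0.54, and turned Zfp994 to 0.0799. Of all genes at an unadjusted edgeR p under 0.05, 345 of 465 were then higher in Rbfox2 KO, against 353 of 694 with TMM. The median SD of the 9 ran from 0.35 to 0.53 and the median size of their difference from 0.22 to 0.55 over all alternatives. Fosb, Fos and Ier3 are limited by depth, at 0 to 44 counts a library.

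Sample numbers 1 to 3 occur in both groups and belong to different mice. Deviations of same-numbered livers correlated at 0.163, 0.0484 and 0.170 (other pairs -0.0313 on average), which does not reach the 0.1 set for every pair, so the samples were taken to share a number only and a weak pairing remains undecided. With the number as a block, 0 genes passed, 739 had an unadjusted p under 0.05, the median of the 9 genes was 0.53 and 4 of them (Jun, Ier2, Ier3 and Dusp1) had an unadjusted p under 0.05.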

Other observations

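Atf3, a stress-induced transcription factor of the rapid response list, was chosen after its values were seen. It had 1.14, 0.840, 0.914, 0.979 and 0.739 CPM in WT 1 to 5, and 6.37, 0.865 and 1.01 CPM in Rbfox2 KO 1 to 3. Rbfox2 KO 1 alone was high, while WT 5, the WT liver with the highest immediate early genes, was the lowest WT liver for Atf3. The edgeR log2 fold change was 1.58 ± 0.60 (SE, adjusted p = 0.954), and 0.02 without Rbfox2 KO 1.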
